A study of Mus musculus with 6 samples.

Results

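The 39 genes described here code for aminoacyl-tRNA synthetases of the mouse, with Mtfmt and Gatb, which code for enzymes that modify charged tRNAs in mitochondria. They were taken by gene symbol, not by any measured value, from the 23282 entries of the RNA-Seq count tables. All 39 were in the tables and all passed the filter on low counts, which kept 13771 genes. By their symbols 21 were put in the cytosolic class and 18 in the mitochondrial class, which holds Mtfmt, Gatb and the symbols that end in 2. Tarsl2 ends in 2 but is a relative of the cytosolic threonyl-tRNA synthetase and was put in the cytosolic class.

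RNA-Seq libraries were made from forebrain hemispheres of wild-type C57BL/6J male mice that were 8 to 10 weeks old. Olfactory bulbs and cerebellum had been taken away. In the control group, 3 libraries came from mice on a normal chow diet (NCD), and in the other group 3 libraries came from mice on a high-fat diet (HFD), each for 10 days. The comparison asks how the transcripts of this family differed in the forebrain after a short HFD.

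Aminoacyl-tRNA synthetases join each amino acid to its tRNA and so supply the ribosome with charged tRNAs. Most amino acids have a pair of nuclear genes, one for the enzyme of the cytosol and one for the enzyme that is imported into mitochondria, where the few proteins coded by mitochondrial DNA are made. Gars and Kars, for glycine and lysine, each serve both compartments. Several cytosolic enzymes sit in a multi-synthetase complex on the scaffold proteins Aimp1, Aimp2 and Eef1e1. In amino acid shortage the kinase Eif2ak4 senses uncharged tRNA, and the transcription factor Atf4 then raises many cytosolic synthetase genes through C/EBP-ATF response elements (CARE) near their start sites. Inherited variants of many members are known causes of neuropathy, leukodystrophy or encephalopathy, so the family is studied closely in nervous tissue.

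Sequences around the start sites were read because the CARE is the known route by which these genes are regulated together. Of the 39 genes, 28 had an entry in the RefSeq promoter table (GRCm38.p6), and Cars, Hars, Lars, Mars, Nars, Rars, Vars, Wars, Hars2, Pars2 and Gatb had none. An entry runs from 250 bases before to 50 bases after the start site. The CARE was searched on both strands with the letters TGATGNAAN, where N is any base. It was found in 5 of 13 cytosolic promoters (38.5%) and in 0 of 15 mitochondrial promoters, against 3.95% of all 32851 promoters and 2.08% of the 10447 tested genes with a promoter. The 5 genes were Aars, Gars, Iars, Tars and Yars. A match is a run of letters in a window and not a site shown to be bound. A window of each is printed with the match in capitals, because these are the cytosolic genes whose response to the diet the element would bear on. They lie at chr8:111033840-111033868 (Aars), chr6:55037960-55037988 (Gars), chr13:49682126-49682154 (Iars), chr15:11399656-11399684 (Tars) and chr4:129189896-129189924 (Yars), on the plus strand but for Tars on the minus strand.
Aars: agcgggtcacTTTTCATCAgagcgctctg
Gars: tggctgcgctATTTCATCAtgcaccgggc
Iars: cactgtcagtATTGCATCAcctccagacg
Tars: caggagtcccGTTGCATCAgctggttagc
Yars: cgagctcagcTGATGCAACccgacgggac

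Motifs of factors known to act on nuclear genes for mitochondrial proteins were searched in the same windows, a choice made after the values were seen. The YY1 letters AANATGGCG were found in 4 of 15 mitochondrial promoters (26.7%) and 1 of 13 cytosolic promoters (7.69%), against 2.38% of all promoters and 5.09% of those of tested genes. The NRF1 motif was in 2 of 15 and 3 of 13, against 9.98% of those of tested genes, and the ETS letters CCGGAAG in 4 of 15 and 4 of 13, against 16.9%. The windows of the YY1 matches of Aars2, Yars2, Lars2 and Wars2 are printed, again with the match in capitals. They lie on the plus strand at chr17:45506841-45506869, chr16:16302971-16302999, chr9:123366937-123366965 and chr3:99141086-99141114. The 4 printed matches lie 6 to 20 bases after the start site. Aars2, Yars2 and Lars2 are among the genes with separate diets, while Wars2 is not (log2 fold change -0.0006). The cytosolic match was in Farsa, at -94 from the start site, and the diets of Farsa overlapped (log2 fold change -0.21). The separate mitochondrial genes Rars2 and Tars2 had 0 matches. A link between the motif and the diet was not tested.
Aars2: gcccggagctAAGATGGCGgtggcgttgg
Yars2: cgtgtcccgcAAGATGGCGgcgcccatgc
Lars2: ttgttttgccAACATGGCGgcgcccagag
Wars2: cgcccttctcAAGATGGCGctgttctctg

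Total counts were 6842785 to 9689372 per library, so that a floor of 3 counts stood at 0.31 to 0.438 CPM. CPM are read counts scaled to a common library total, here after TMM, a correction for library composition. Markers of neurons, astrocytes, oligodendrocytes, microglia, endothelium and choroid plexus were present in all libraries, and these sums overlapped between the diets but for neurons, at 4656 to 4776 CPM on the HFD and 4779 to 4987 CPM on the NCD. HFD replicate 3 stood apart, with summed pituitary markers at 1272 CPM against 4.61 to 13.4 in the other 5 libraries. Blood markers summed to 762 to 1190 CPM on the HFD and 610 to 738 on the NCD, with 6 of 7 higher on the HFD at an unadjusted p under 0.05. Liver markers summed to 5.77 to 11.9 and 10.4 to 51.8 CPM, with 5 of 5 tested lower at such a p. Among the blood markers, Hbb-bs and Hbb-b1 had near-equal counts in every library (1316 and 1298 in NCD replicate 1). So had Hbb-bt and Hbb-b2 (253 and 232 in NCD replicate 1). Whether these entries share reads was not tested, so the 6 blood markers may not be 6 separate genes. The part of these tissues in the values of the synthetase genes was not tested. In bulk tissue, fewer cells of a type and less RNA per cell cannot be told apart. The labels do not say that the libraries came from separate animals, so p-values measure the spread between these libraries, which may be technical.

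The cytosolic genes were the more abundant class in the forebrain. Their median level over the 6 libraries was 48.9 CPM, with a range of 13.5 to 206, and that of the mitochondrial genes was 10.1 CPM, with a range of 2.83 to 73.2. Set per kb of the longest annotated transcript, the medians were 14.0 and 3.24 CPM. QuantSeq counts tags near the 3′ end, so CPM is given as the level here and the value per kb beside it where genes are compared.

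Nars, the asparaginyl-tRNA synthetase, had the highest level of the family, at 204, 186 and 213 CPM in the NCD libraries against 200.4, 212 and 217 CPM in the HFD libraries (74.9 CPM per kb). Sars, for serine, followed at 177, 162 and 184 CPM in NCD and 179.5, 199.97 and 209 CPM in HFD libraries. Gars, for glycine, stood at 121, 119 and 119 CPM in the NCD libraries against 126, 123 and 131 CPM in the HFD libraries. Sars lay above Gars in every library, while Nars and Sars overlapped in their ranges. Per kb, Farsb (53.0), Sars (51.9) and Gars (51.7) were close to each other. At the low end of the cytosolic class, Tarsl2 had 29.3, 21.9 and 25.5 CPM with NCD and 23.3, 26.4 and 24.2 CPM with HFD. Cars, for cysteine, had 18.02, 17.5 and 19.1 CPM with NCD and 15.8, 18.9 and 17.3 CPM with HFD. In both genes the diets overlapped. Vars, the valyl-tRNA synthetase, was the lowest of the class, at a mean of 13.5 CPM and at 3.25 CPM per kb.

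Iars2, the mitochondrial isoleucyl-tRNA synthetase, was the most abundant mitochondrial gene, at 71.0, 74.4 and 84.7 CPM in NCD and 75, 73.1 and 60.9 CPM in HFD libraries. The 3′ end of the gene, which lies at chr1:185284726-185329396 (GRCm38, minus strand), overlaps exons of Rab3gap2 on the other strand. Rab3gap2, a subunit of a Rab GTPase-activating complex, had raw counts of 567, 732 and 868 in NCD and 546, 678 and 450 in HFD libraries. The raw counts of Iars2 were 575, 690 and 804 in NCD and 521, 669 and 443 in HFD libraries. Iars2 thus stood at 0.926 to 1.01 times Rab3gap2 in every library. The use of strand in the counting is not stated, and reads of these genes cannot be told apart, so the level of Iars2 is uncertain. Mars, for methionine, overlaps Ddit3, a transcription factor of the stress response, in the same way and stood at 1.16 to 1.30 times its counts. In all, 8 members had an exon of another gene in their last 1000 bases. Tarsl2 stood at 0.145 to 0.204 times Tm2d3 (same strand), and Fars2 at 0.035 to 0.051 times Nrn1. Farsb stood at 4.95 to 6.22 times Sgpp2, and Yars at 4.07 to 6.62 times C77080. Cars2 overlaps Naxd, which had no counts under that symbol. The levels of these genes carry a like doubt. Eprs, for glutamate and proline, is the next member on chromosome 1, 33647 bases from Iars2 and on the other strand.

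Yars2, for tyrosine, and Lars2, for leucine, came next in the mitochondrial class, at means of 18.5 and 16.9 CPM. Nars2, Sars2 and Mars2 were the lowest, at means of 5.02, 3.18 and 2.83 CPM. Nars2 had 4.20, 4.21 and 4.74 CPM with NCD and 4.89, 4.37 and 7.70 CPM with HFD. Sars2 had 2.96, 2.70 and 2.74 CPM with NCD and 4.46, 4.04 and 2.20 CPM with HFD. In both of these the diets overlapped, and the HFD libraries were spread more widely than the NCD libraries. Raw counts went down to 15 in a library for a mitochondrial gene and to 79 for a cytosolic gene. The median coefficient of variation within a diet was 7.91% in the cytosolic class and 18.6% in the mitochondrial class, where counting alone would give 4.94% and 10.95%. In the order of mean levels, 35 of the 38 neighbouring genes overlapped in their ranges. The gaps lay between Sars and Gars, Farsb and Aars, and Kars and Hars.

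**Figure D1:**
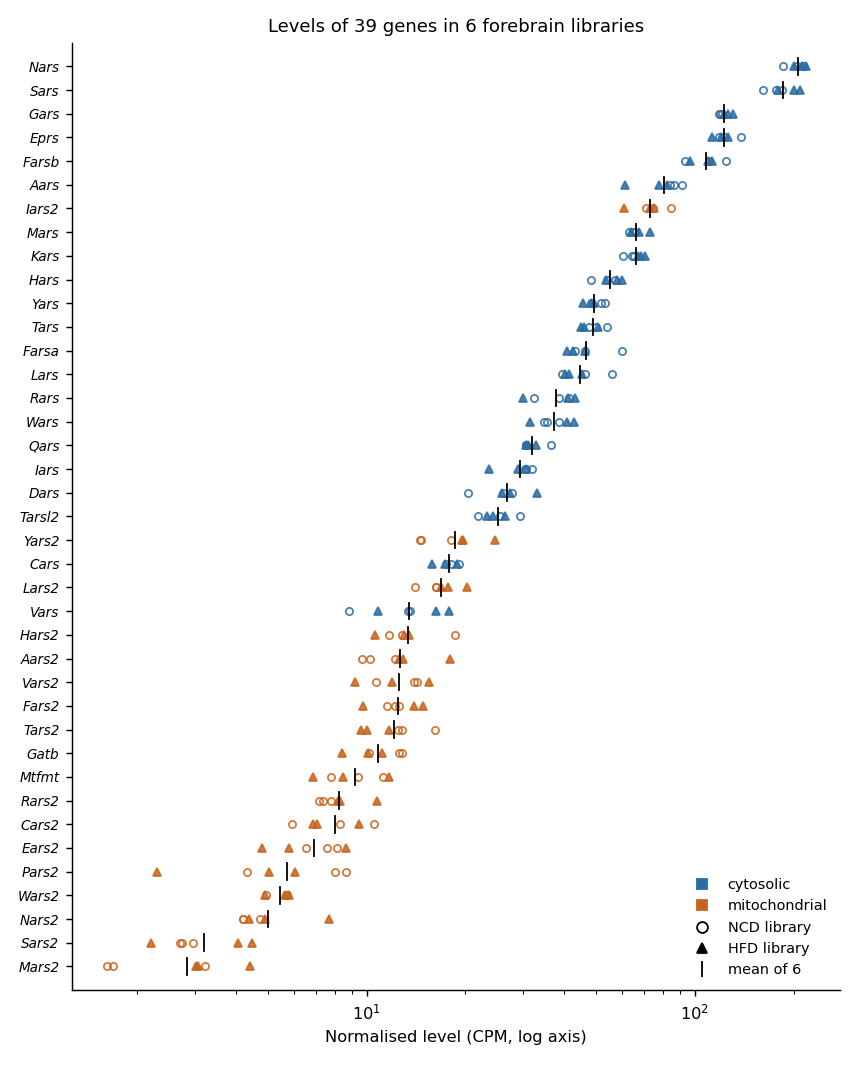
Normalised level of the 39 genes in CPM (log axis), with 1 point per library, open circles for NCD, filled triangles for HFD, and a line at the mean of 6. Cytosolic genes (blue) fill the upper part from 206 CPM down, mitochondrial genes (orange) the lower part down to 2.83 CPM, and Iars2, Yars2 and Lars2 stand above at least the lowest cytosolic gene.

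For 13 amino acids the table holds a cytosolic and a mitochondrial gene of the same kind. In 11 of these pairs the mitochondrial gene was lower in all 6 libraries. The median log2 ratio of the mitochondrial to the cytosolic CPM was -2.05, a cytosolic excess of 4.13-fold, and per kb it was -1.90. Serine, asparagine and methionine had the widest gaps, in an order that depended on the scale. In CPM, Sars stood 58.2-fold over Sars2, Nars 41.0-fold over Nars2 and Mars 23.4-fold over Mars2. Per kb the log2 ratios were -4.93 for serine, -5.82 for asparagine and -6.43 for methionine, so that methionine was then the widest. The longest annotated transcript of Mars2 has 11.3 kb. Tags near the 3′ end do not scale with length, so the order in CPM is the one kept here. Alanine, tryptophan and arginine lay at 6.39-, 6.85- and 4.58-fold in CPM, and at log2 ratios per kb of -1.90, -3.39 and -2.02. Leucine and tyrosine were closer, at 2.65-fold and 2.66-fold in CPM and at -1.37 and -1.36 per kb. Valine was the exception on CPM, since Vars and Vars2 differed by 1.07-fold with Vars2 lower in 3 of 6 libraries, and per kb the log2 ratio was -0.19. In isoleucine the order was turned, with Iars2 2.50-fold over Iars in CPM and a log2 ratio per kb of 1.01, a value that carries the overlap with Rab3gap2.

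**Figure D2:**
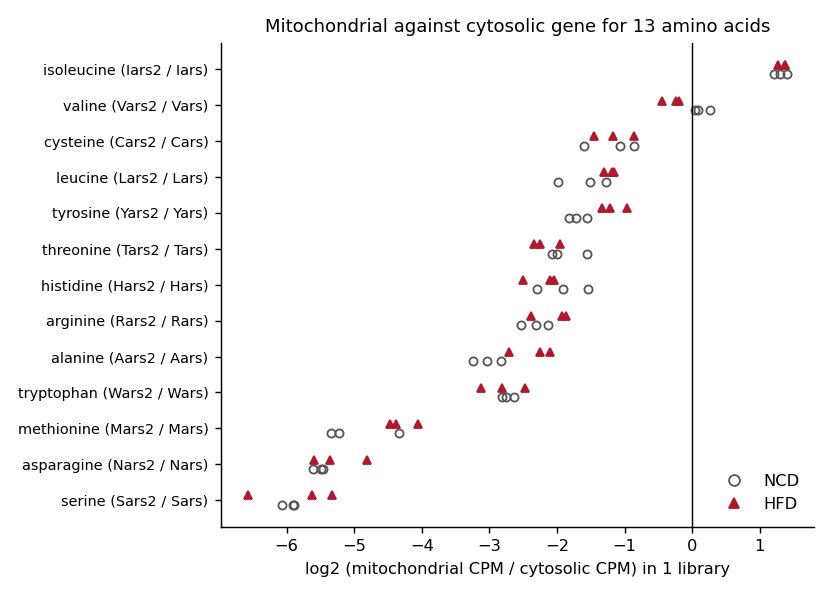
Log2 ratio of the mitochondrial to the cytosolic CPM for 13 amino acids, with 1 point per library, open circles for NCD and filled triangles for HFD. Ratios run from about -5.86 for serine to 1.32 for isoleucine, and the diets separate for alanine, tyrosine and valine.

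Phenylalanine needs a cytosolic enzyme of both Farsa (alpha subunit) and Farsb (beta subunit). Farsb stood at 2.01- to 2.78-fold of Farsa over the libraries in CPM and at 3.30- to 4.57-fold per kb. Proline has no separate cytosolic gene, since Eprs codes for an enzyme that charges both glutamate and proline. Eprs had 123 CPM, against 5.73 CPM for Pars2 and 6.91 CPM for Ears2. Mtfmt, which formylates the methionine of the mitochondrial initiator tRNA, and Gatb, a subunit of the enzyme that makes glutaminyl-tRNA in mitochondria, had 9.24 and 10.9 CPM.

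Between the diets, 0 of the 39 genes passed an adjusted p of 0.05 in the quasi-likelihood test of edgeR (Benjamini-Hochberg, over all 13771 genes), and neither did any other gene (0%). The adjusted p of every member was at least 0.979. At an unadjusted p under 0.05 there were 3 of 39 (7.69%), against 3.68% of all genes. The 3 were Yars2 and Aars2, higher on the HFD (1.71% of all genes), and Tars2, lower on the HFD (1.98%), all of the mitochondrial class. With DESeq2 1 member and with quantile normalization and limma 4 members had such a p. The diets did not overlap in 8 of the 39 genes (20.5%), against 8.81% of all genes. Of these, 6 were higher on the HFD (15.4%, against 4.31%), namely Gars, Kars, Aars2, Lars2, Rars2 and Yars2, and 2 were lower (5.13%, against 4.49%), namely Aars and Tars2. The difference of these shares from those of all genes was not tested, and with 3 libraries against 3 an exact permutation test of a single gene cannot go below 0.1. Without HFD replicate 3, the library with pituitary markers, 13 members were separate, against 18.4% of all genes. Without it 3 members had an unadjusted p under 0.05, against 3.17% of all genes, but these were Aars2, Pars2 and Vars, and Yars2 and Tars2 no longer had one.

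Yars2, the mitochondrial tyrosyl-tRNA synthetase (the whole gene at chr16:16302965-16309640, GRCm38), had 14.7, 18.1 and 14.5 CPM in NCD and 19.6, 19.7 and 24.6 CPM in HFD libraries. All HFD libraries lay above all NCD libraries, with the highest value in HFD replicate 3. The means were 15.8 ± 2.03 and 21.3 ± 2.88 CPM (SD, n = 3), and the log2 fold change of HFD over NCD was 0.43 (SE 0.16, adjusted p = 0.979). Without HFD replicate 3 it was 0.31, and the unadjusted p was under 0.05 in 11 of 14 alternatives. Yars, its cytosolic partner, had 48.3, 53.2 and 51.6 CPM in NCD and 49.2, 45.6 and 48.1 CPM in HFD libraries, with a log2 fold change of -0.10 (SE 0.11). These diets overlapped.

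Aars2, the mitochondrial alanyl-tRNA synthetase (chr17:45506841-45520843), had 10.2, 12.2 and 9.69 CPM in NCD and 17.99, 12.6 and 12.9 CPM in HFD libraries. The diets were separate by a small step, from 12.2 to 12.6 CPM, and HFD replicate 1 lay far above the other HFD libraries. The log2 fold change was 0.43 (SE 0.19, adjusted p = 0.979) and 0.25 without HFD replicate 1, and 8 of 14 alternatives had an unadjusted p under 0.05. Aars, the cytosolic alanyl-tRNA synthetase (chr8:111033144-111057664), was lower in sign, at 83.8, 86.5 and 91.7 CPM in NCD and 77.6, 82.3 and 61.5 CPM in HFD libraries. Its diets were separate too, with the lowest value in HFD replicate 3. The log2 fold change was -0.24 (SE 0.12, adjusted p = 0.979), the lowest of the cytosolic class, and -0.13 without HFD replicate 3. An exon of Aars overlaps Exosc6 on the same strand near the 3′ end, and Exosc6, an exosome subunit, had a log2 fold change of 0.05.

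Tars2, the mitochondrial threonyl-tRNA synthetase (chr3:95739976-95760206), had 12.5, 12.8 and 16.1 CPM in NCD and 11.7, 9.62 and 10.04 CPM in HFD libraries. Every HFD value lay under every NCD value, and NCD replicate 3 was the highest. The log2 fold change was -0.41 (SE 0.19, adjusted p = 0.979) and -0.28 without NCD replicate 3, with an unadjusted p under 0.05 in 9 of 14 alternatives. Tars, the cytosolic partner, had 50.1, 53.8 and 47.5 CPM in NCD and 45.1, 45.9 and 50.7 CPM in HFD libraries, with a log2 fold change of -0.10 (SE 0.12). Tars and Tars2 were thus both lower in sign, but the values of Tars overlapped between the diets.

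Gars, Kars, Lars2 and Rars2 were also separate, each with an unadjusted p over 0.05. Gars had a log2 fold change of 0.09 (SE 0.10), with NCD values of 119 to 121 and HFD values of 123 to 131 CPM. Kars, for lysine, had 64.6, 65.2 and 60.4 CPM in NCD and 70.2, 68.6 and 67.1 CPM in HFD libraries, a log2 fold change of 0.12 (SE 0.11). Gars and Kars, which serve both compartments, were separate by steps of about 2 CPM, from 120.6 to 122.9 for Gars and from 65.2 to 67.1 for Kars. Their coefficients of variation within a diet were 2.32% and 3.33%, below the 3.12% and 4.26% that counting alone would give. A link between serving both compartments and the diet was not tested. Lars2 had 16.3, 16.3 and 14.0 CPM in NCD and 16.8, 20.2 and 17.7 CPM in HFD libraries, a log2 fold change of 0.24 (SE 0.16). Rars2, for arginine, had 7.16, 7.77 and 7.37 CPM in NCD and 8.21, 8.30 and 10.7 CPM in HFD libraries, a log2 fold change of 0.28 (SE 0.21). In Rars2 the spread was wider on the HFD than on the NCD, with HFD replicate 3 at the top. These diets too were separate by small steps, from 16.3 to 16.8 CPM for Lars2 and from 7.77 to 8.21 CPM for Rars2.

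**Figure D3:**
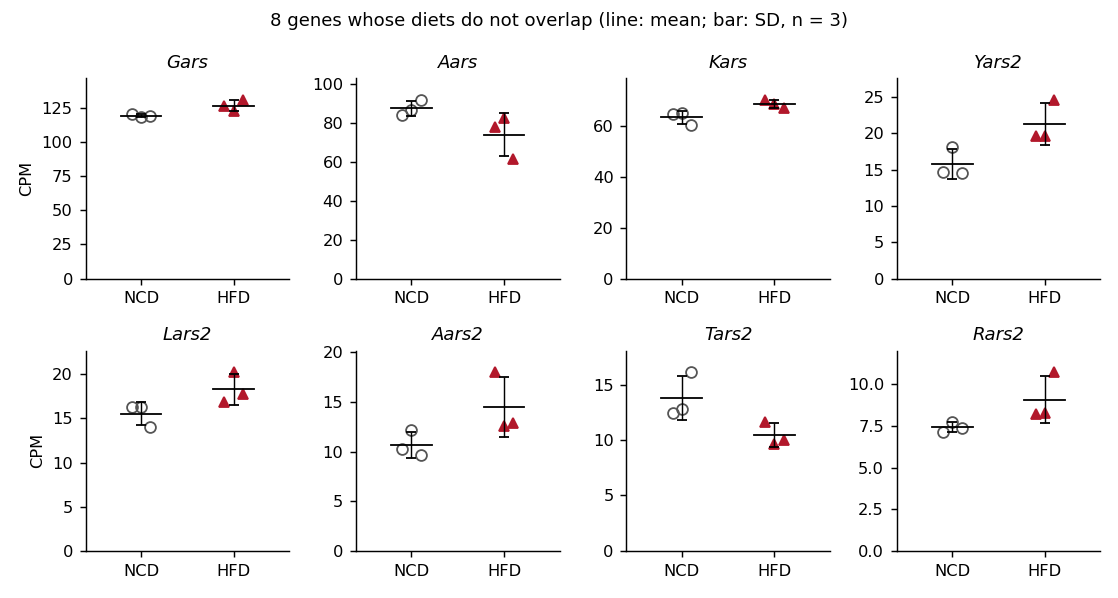
CPM of the 8 genes whose diets did not overlap, with open circles for the 3 NCD and filled triangles for the 3 HFD libraries, a line at the mean and a bar for the SD. Aars and Tars2 are lower on the HFD and the other genes higher, and in Aars2, Rars2 and Yars2 a single HFD library lies well above the others.

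The widest fold changes of the family were those of low genes and did not separate the diets. Mars2, for methionine, had 3.21, 1.62 and 1.69 CPM in NCD and 3.02, 3.06 and 4.40 CPM in HFD libraries, a log2 fold change of 0.69 with a 95% interval of -0.12 to 1.51. Without NCD replicate 1, in which Mars2 was highest of the NCD libraries, that value was 1.07. Pars2, for proline, had 8.02, 4.31 and 8.64 CPM in NCD and 2.30, 5.03 and 6.05 CPM in HFD libraries, a log2 fold change of -0.63 with an interval of -1.35 to 0.08. It was -0.34 without HFD replicate 1, in which Pars2 was lowest. In the cytosolic class Vars had the highest log2 fold change, 0.34 with an interval of -0.12 to 0.80, and it was 0.16 without NCD replicate 3, 0.19 without HFD replicate 2 and 0.52 without HFD replicate 3. Vars stood at 13.3, 13.6 and 8.85 CPM in NCD and 16.3, 17.8 and 10.9 CPM in HFD libraries, so that replicate 3 of each diet was the lowest.

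The remaining members had overlapping diets and an unadjusted p over 0.05. In the cytosolic class the highest of them were Dars, for aspartate, at a log2 fold change of 0.22 (SE 0.15), and Sars at 0.17 (SE 0.11). Hars (0.11), Wars (0.08), Mars (0.08), Nars (0.06) and Rars (0.03) were also above 0. Farsa, the alpha subunit of the phenylalanyl-tRNA synthetase, was lowest among them at -0.21 (SE 0.14), while the beta subunit Farsb was at -0.04 (SE 0.12). Iars (-0.16), Lars (-0.15), Eprs (-0.08), Cars (-0.06), Qars (-0.05) and Tarsl2 (-0.05) were below 0. In the mitochondrial class, Nars2 and Sars2 had log2 fold changes of 0.36 (SE 0.29) and 0.35 (SE 0.35), and Fars2 one of 0.08. Wars2, for tryptophan, had the value closest to 0, with 4.94, 5.72 and 5.69 CPM with NCD and 4.89, 5.79 and 5.64 CPM with HFD. Gatb (-0.27), Hars2 (-0.23), Ears2 (-0.21), Iars2 (-0.14), Cars2 (-0.09), Mtfmt (-0.08) and Vars2 (-0.07) were below 0. None of these genes passed the test, adjusted or not.

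By class, the cytosolic genes had a median log2 fold change of -0.04, with 10 above and 11 below 0, and the mitochondrial genes of -0.03, with 8 above and 10 below 0. In sign 18 of the 39 were higher on the HFD, against 49.4% of all genes. The median over all genes tested was 0.00 (-0.0025). The cytosolic fold changes lay within -0.24 to 0.34. For 20 of the 21 cytosolic genes the 95% interval stayed within a 1.5-fold change either way, with Vars the exception, and this held for 6 of the 18 mitochondrial genes and for 62.5% of all genes. A change of that size thus lay outside the intervals of most cytosolic genes and inside those of most mitochondrial genes. The median SE was 0.12 in the cytosolic and 0.21 in the mitochondrial class.

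**Figure D4:**
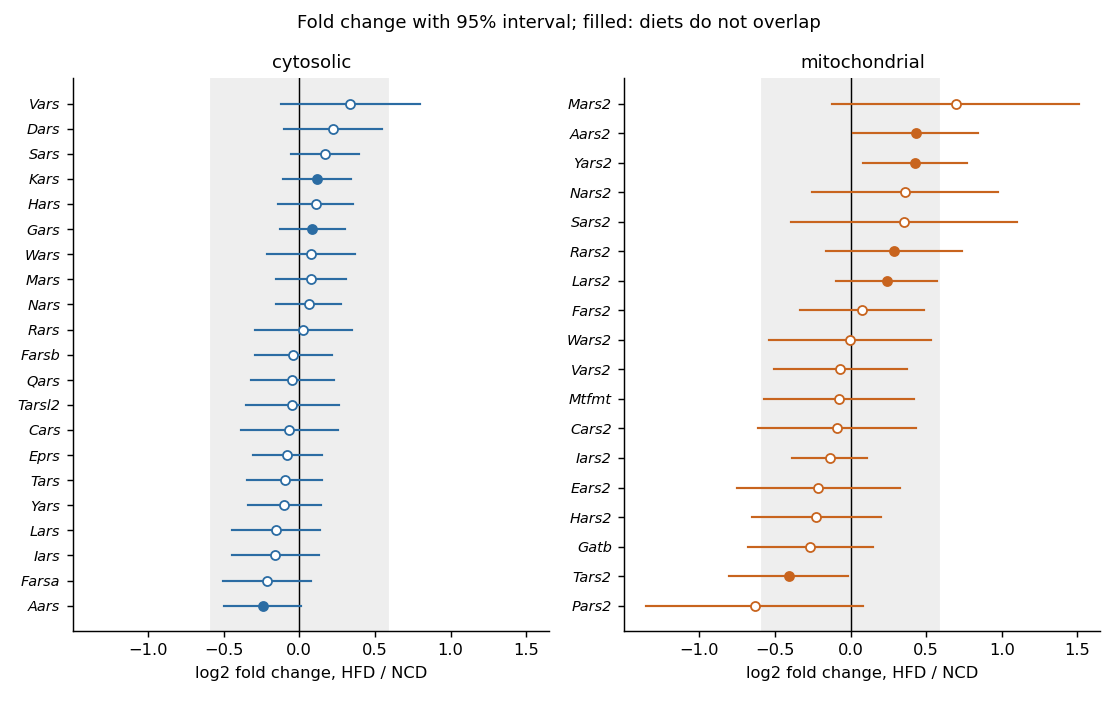
Log2 fold change of HFD over NCD with its 95% interval (edgeR) for the 21 cytosolic and 18 mitochondrial genes, filled where the diets did not overlap; the grey band marks a 1.5-fold change. The cytosolic intervals lie in the band but for Vars, and most mitochondrial intervals reach outside it.

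Summed over the class, the cytosolic genes held 1409, 1365 and 1471 CPM in NCD and 1401, 1465 and 1419.7 CPM in HFD libraries. The mitochondrial genes held 231, 241 and 242 CPM in NCD and 242, 229.6 and 238 CPM in HFD libraries. In both classes the diets overlapped. The log2 ratio of the mitochondrial to the cytosolic sum was -2.57 ± 0.06 in NCD and -2.60 ± 0.07 in HFD libraries (SD, n = 3), a difference of -0.02 that was smaller than either SD. The mitochondrial share of the family was 13.6% to 15.03% over the 6 libraries. Iars2 held the largest part of the mitochondrial sum, and without it the difference in log2 ratio was 0.03. Leaving out all 14 members whose exons overlap another gene gave 0.06 for the ratio, and medians of 0.04 for the cytosolic and 0.24 for the mitochondrial genes that were left. Both ways of leaving out members were chosen after the data were seen.

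**Figure D5:**
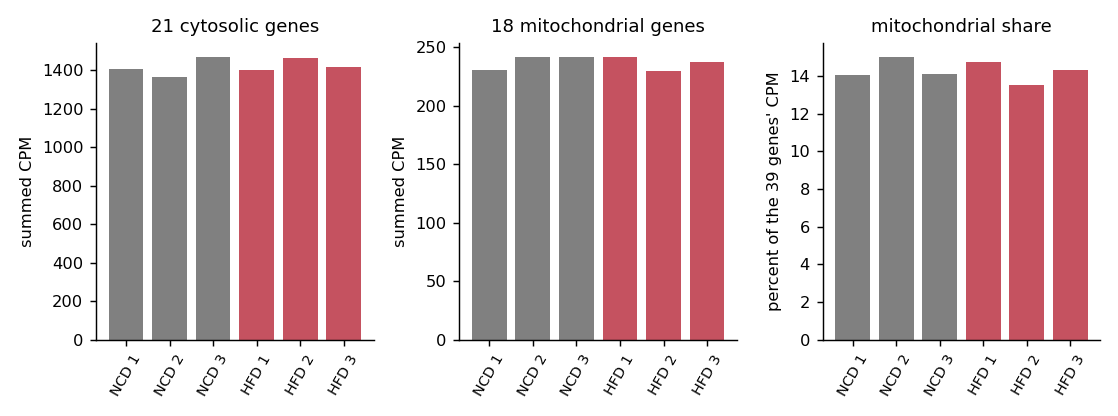
Summed CPM of the 21 cytosolic genes and of the 18 mitochondrial genes, and the mitochondrial share in percent, as bars from 0 for each library (grey NCD, red HFD). The share lies between 13.6% and 15.03% and the diets overlap in all 3 panels.

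Within the 13 amino acids, the ratio of the mitochondrial to the cytosolic gene was separate between the diets for 3, alanine, tyrosine and valine. Of single genes, 8.81% of all tested were separate. A like share over ratios of other gene pairs was not worked out, and the count of 3 was not tested. For alanine the log2 ratio was -3.03, -2.83 and -3.24 in NCD and -2.11, -2.71 and -2.25 in HFD libraries, a difference in the means of 0.68. For tyrosine it was -1.72, -1.55 and -1.83 in NCD and -1.33, -1.21 and -0.97 in HFD libraries, a difference of 0.53. For valine it was 0.09, 0.03 and 0.27 in NCD and -0.45, -0.20 and -0.24 in HFD libraries, a difference of -0.42. Alanine and tyrosine hold genes already described as separate, whereas neither Vars nor Vars2 was separate alone. The ratio was higher on the HFD for 9 amino acids and lower for 4.

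By their roles, the members showed small differences in either direction. The 8 cytosolic members of the multi-synthetase complex had a median log2 fold change of -0.01, with 0 at an unadjusted p under 0.05. The 6 enzymes for the branched-chain amino acids leucine, isoleucine and valine had a median of -0.10. They ran from -0.16 (Iars) to 0.34 (Vars), with 0 at an unadjusted p under 0.05. Of these, 2 were above 0 (Vars and Lars2) and 4 below, among them Iars2, whose level is uncertain. The 5 genes with a CARE match, out of 13 cytosolic genes with a promoter entry, had a median of -0.10. Of these 5, 4 (all but Gars) were lower on the HFD in sign, as were 6969 of the 13771 genes tested. The log2 fold changes of the 5 ran from -0.24 (Aars) to 0.09 (Gars), and 0 had an unadjusted p under 0.05. Aars and Gars were separate between the diets, in opposite directions.

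Other genes of charging and translation were read beside the family. The scaffold genes Aimp1, Aimp2 and Eef1e1 had log2 fold changes of 0.10, 0.09 and 0.34, with 0 of 3 at an unadjusted p under 0.05. The 4 editing genes that remove wrong amino acids from tRNA (Aarsd1, Prorsd1, Dtd1 and Dtd2) had a median of -0.10, also with 0. For the glutaminyl-tRNA route of mitochondria, Ears2, Gatb, Qrsl1 and Gatc had a median of -0.18 and 0 at such a p. The counts were 0 of 6 cytosolic elongation factors (median 0.13), 0 of 11 mitochondrial translation factors (median 0.11) and 0 of 11 tested genes of mitochondrial tRNA processing (median -0.07).

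The amino acid response had 25 of 28 listed genes tested, with a median log2 fold change of -0.01 and 1 gene (4%) at an unadjusted p under 0.05, close to the 3.68% of all genes. This was Slc7a1, a carrier of cationic amino acids, at 35.5, 38.8 and 40.9 CPM in NCD and 32.2, 35.2 and 25.8 CPM in HFD libraries. The diets were separate, with a log2 fold change of -0.30 (SE 0.14, adjusted p = 0.979). Atf4 itself had a log2 fold change of 0.16 (SE 0.10) and Asns, the asparagine synthetase that it is known to raise, one of 0.06 (SE 0.11). Among 8 genes for the kinases and phosphatase subunits that act on eIF2 alpha and their partners, 1 (12.5%) had such a p, Ppp1r15b. It had 160, 171 and 104 CPM in NCD and 167, 184 and 191 CPM in HFD libraries. The diets overlapped, and NCD replicate 3 lay far below all other libraries. Its log2 fold change was 0.32 (SE 0.15, adjusted p = 0.979). Eif2ak4, the sensor of uncharged tRNA, had one of -0.04 (SE 0.21).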

How the data were processed

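Reads of QuantSeq 3′ libraries had been trimmed, mapped to mm10 by Bowtie2 and counted per gene with Bedtools, unique and multiple alignments alike. The authors deposited these whole-number counts without normalization. The annotation and the use of strand are not given in the sources used here. Multiple alignments can add reads of near-identical copies. Each of the 6 libraries has 1 count table of 23282 entries, of which 79 share a symbol and were kept apart.

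edgeR 4.0.16 in R 4.3.3 was run on the counts, with filterByExpr (minimum count 10, minimum total count 15), TMM scaling, glmQLFit, glmQLFTest and Benjamini-Hochberg adjustment over 13771 genes. The SE of a log2 fold change is its size over the root of the F statistic. The script was tested on simulated data. DESeq2 1.42.0, limma 3.58.1, other scalings and filters, a replicate block and left-out libraries were alternatives. Positions are from GENCODE vM21 (GRCm38), promoters from RefSeq. Figures were made with matplotlib 3.10.9. The floor of 3 counts covers counting error only. The 95% intervals of the fold changes come from the edgeR fit and include the spread between libraries. No molecular identifiers were used.

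Named with values per library were genes at an unadjusted p under 0.05 with their partners for the same amino acid, genes with separate diets, and the extremes of level and fold change in each class. Genes of the other lists were named at such a p, and Atf4, Asns and Eif2ak4 were added after their values were seen. The members and lists were chosen with earlier results of these data known. A gene of the charging list and a promoter window are not reported here. Protein sequences were not used here.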

Additional observations from a re-analysis of the deposited data

How the results depend on the processing

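No member reached an adjusted p of 0.05 under any alternative, and the smallest adjusted p was 0.839. Of 546 log2 fold changes of single genes under alternatives, 541 moved by less than the SE of that gene in the main fit. That SE was wide for low genes, so the shift of Mars2 from 0.69 to 1.07 (SE 0.39) was among these. In 11 of the 39 genes, none of them called, the sign was not the same in all alternatives. The count of members at an unadjusted p under 0.05 was 1 with DESeq2 and 0 to 4 when 1 library was left out, with 0 without NCD replicate 3, where 2.95% to 5.46% of all genes had such a p in those fits. With the replicate number as a block it was 1. Same-numbered libraries of the diets had correlations of -0.03, 0.05 and -0.06 in their deviations from the group means. Libraries with unlike numbers had -0.06 to 0.08. With 3 libraries per diet these values cannot show whether the numbers pair the samples or mark a shared batch. The count of genes with separate diets was 10 to 13 when 1 library was left out, where 18% to 20.4% of all genes were separate. The median log2 fold change moved between -0.076 and 0.0438 (cytosolic) and -0.0345 and 0.0569 (mitochondrial) in the same way, and was 0.0375 for the mitochondrial genes without Mtfmt and Gatb. Without members that overlap another gene, added after the data were seen, the medians were 0.045 (cytosolic) and 0.239 (mitochondrial) and the difference in log2 ratio 0.0607. The cause was not tested. Both class medians thus have no fixed sign. Counts went down to 15 in a library for mitochondrial genes.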
